A study of Caenorhabditis elegans with 6 samples.

Results

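The microRNA genes mir-34, mir-71, mir-238 and mir-246, known from adult worms for their part in lifespan and stress resistance, were described in small RNA libraries of Caenorhabditis elegans embryos. They were chosen by name as 4 of the 32238 genes in the sense count table, of which 260 are microRNA genes by their RefSeq class and 246 had at least 1 count. The study compared embryos mutant for both dot-1.1 (allele knu339) and ced-3 (allele n1286), called double mutants here, with embryos mutant for ced-3 (allele n1286) alone, with 3 libraries of each. DOT-1.1 is a histone methyltransferase related to human DOT1L, and CED-3 is a caspase that drives cell death. Both genotypes carry the ced-3 mutation and no wild type is analysed here, so the comparison is of dot-1.1 mutants with dot-1.1 wild types that both lack normal ced-3. Embryos were collected with hypochlorite from egg-laying adults grown at 20 °C, no developmental stage is given for them, and the labels name the libraries of a genotype biological replicates without saying whether more than one strain was used.

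MicroRNAs are short RNAs cut from hairpin transcripts that guide Argonaute proteins to messenger RNAs with a matching site, which lowers the output of those messengers. In adult worms mir-71, mir-238 and mir-246 are each needed for a normal lifespan, and mir-239, which belongs to the same seed family as mir-238, acts against a long life. The gene mir-34 belongs to a family conserved in mammals, where it responds to p53, and in worms it alters the response to radiation and other stress.

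The 4 genes differed widely in abundance in these embryos. Levels are given as a share, which is the sense count of the gene per 1000000 sense counts of all microRNA genes in the same library. Averaged over the 6 libraries, the share was 6123 for mir-71, 1156 for mir-238, 39.4 for mir-246 and 19.9 for mir-34. These shares placed mir-71 at rank 25, mir-238 at rank 38, mir-246 at rank 90 and mir-34 at rank 104 among the microRNA genes. Their annotated hairpins are 94 to 98 bases long, so division by length left the order as it was, with a share per 100 bases of 6514 for mir-71, 1180 for mir-238, 40.6 for mir-246 and 20.6 for mir-34. Together the 4 genes took 0.427% to 0.937% of a library's microRNA counts, and mir-71 alone gave 69.7% to 87.4% of that sum.

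Between genotypes, mir-246 and mir-34 had larger shares in every double mutant library than in any ced-3 library, by 2.17-fold and 1.66-fold on the means, while mir-71 and mir-238 overlapped between genotypes. Of the 177 microRNA genes tested, 11.3% had larger shares in every double mutant library. On some other scales mir-246, mir-34 or both overlapped. No member passed the test across all genes. Sense counts of 7723 genes were tested with edgeR's quasi-likelihood test on the scale of microRNA counts, and 0 of the 4 members and 0% of all genes passed at an adjusted p under 0.05. That fit put 37 genes (0.479%) higher and 19 (0.246%) lower in double mutants when p was left unadjusted, again at 0.05, and 5 of the 37 were microRNA genes. DESeq2 with its own size factors called 9 genes higher and 1 lower, 0.193% of those it gave an adjusted p, and 0 of them were members. With size factors from microRNA counts DESeq2 called 0. In bulk embryos, a change in RNA per cell and a change in the number of cells that make it cannot be told apart.

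**Figure D1:**
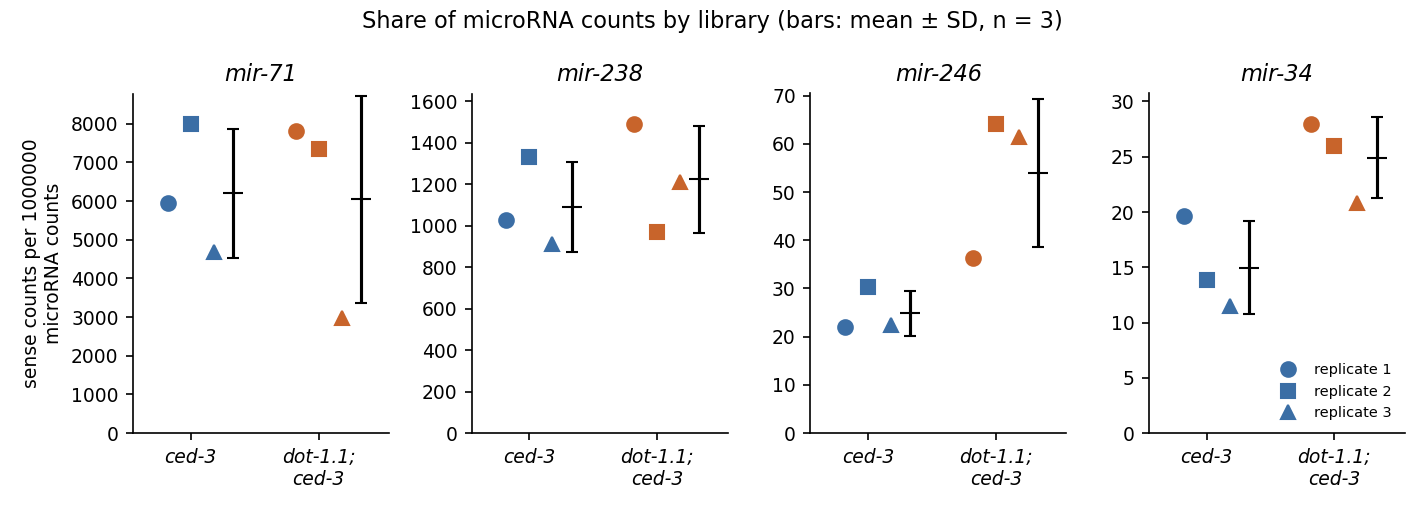
Sense counts per 1000000 microRNA counts (vertical axes, each from 0) of mir-71, mir-238, mir-246 and mir-34 in the 3 ced-3 libraries (blue) and the 3 double mutant libraries (orange), with marker shapes for the replicate number and black bars for mean ± SD. The double mutant libraries of mir-246 lie between 36.3 and 64.0 and those of mir-34 between 20.8 and 27.9, all above ced-3 embryos, while mir-71 and mir-238 overlap.

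The gene mir-246 (chromosome IV, 10940134 to 10940230, plus strand, WBcel235; gene ID 3565660) promotes longevity in adult worms, in which its level climbs with age. It lies 199 bases from the nearest protein-coding gene, fic-1. No other annotated gene overlaps it, with genes of piRNAs, another class of small RNA, left out of the search. Its sense counts were 328, 625 and 408 in ced-3 embryos and 520, 988 and 1452 in double mutants. As shares these were 22.0, 30.3 and 22.4 in ced-3 embryos and 36.3, 64.0 and 61.4 in double mutants. Double mutant replicates 2 and 3 were the highest, and the nearest pair across genotypes was double mutant replicate 1 and ced-3 replicate 2. The 95% Wilson intervals of those 2 shares, which cover counting error only, did not overlap, at 33.3 to 39.6 and 28.0 to 32.7. The means were 53.9 ± 15.3 in double mutants and 24.9 ± 4.68 in ced-3 embryos (SD, n = 3; two-sided exact permutation p = 0.1, or 0.2 after adjustment over the 4 genes). A p of 0.1 is the smallest that 3 libraries against 3 can give. The log2 fold change from edgeR was 1.12 ± 0.60 (SE), with an edgeR p of 0.0847 and an adjusted p of 0.999.

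The gene mir-34 (chromosome X, 2969752 to 2969848, minus strand; gene ID 260162) was the rarest of the 4, and its nearest protein-coding gene is gbb-1, 1559 bases away on the other strand. Its sense counts were 293, 285 and 209 in ced-3 embryos and 400, 401 and 492 in double mutants. The shares were 19.6, 13.8 and 11.5 in ced-3 embryos and 27.9, 26.0 and 20.8 in double mutants. The genotypes did not overlap, but ced-3 replicate 1 (Wilson interval 17.5 to 22.0) and double mutant replicate 3 (19.1 to 22.7) could not be told apart at this depth. The means were 24.9 ± 3.68 in double mutants and 15.0 ± 4.19 in ced-3 embryos (SD, n = 3; two-sided exact permutation p = 0.1, adjusted 0.2). The log2 fold change was 0.73 ± 0.68 (SE; edgeR adjusted p = 0.999).

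Separation of the genotypes was not particular to the members, and among microRNAs it went almost wholly one way on this scale. Of 177 microRNA genes tested, 20 (11.3%) had all double mutant shares above all ced-3 shares and 1 (0.565%) had them all below. The 2 members are among these 20, against a background of 11.3%. With no difference between genotypes, 3 libraries separate from 3, in either direction, with a probability of 0.1. Over all 7723 sense genes tested, 125 had all double mutant values higher and 120 had them all lower. A log2 fold change at least as large as that of mir-246 was seen in 9 of the 177 genes (5.08%), and one at least as large as that of mir-34 in 17 (9.60%). The median log2 fold change was 0.13 over these microRNA genes, -0.17 over all genes tested and 0.45 over the 4 members, 3 of which lay above 0. The separation also depends on the scale. Set against all sense counts, mir-34 stayed apart (9.96 to 15.3 counts per 1000000 in ced-3 embryos and 18.6 to 20.5 in double mutants) and mir-246 overlapped (17.1 to 28.0 and 26.5 to 55.0). With TMM factors from microRNA genes, mir-246 stayed apart (23.4 to 30.9 and 36.6 to 59.8) and mir-34 overlapped, with 20.9 in the highest ced-3 and 19.4 in the lowest double mutant library. With the 5 most abundant microRNAs left out of the denominator, mir-246 again stayed apart (51.8 to 61.6 and 86.1 to 156.3) and mir-34 overlapped (26.5 to 47.1 and 44.2 to 66.2). With TMM factors from the whole table, which ran from 0.534 to 1.95, both overlapped.

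**Figure D2:**
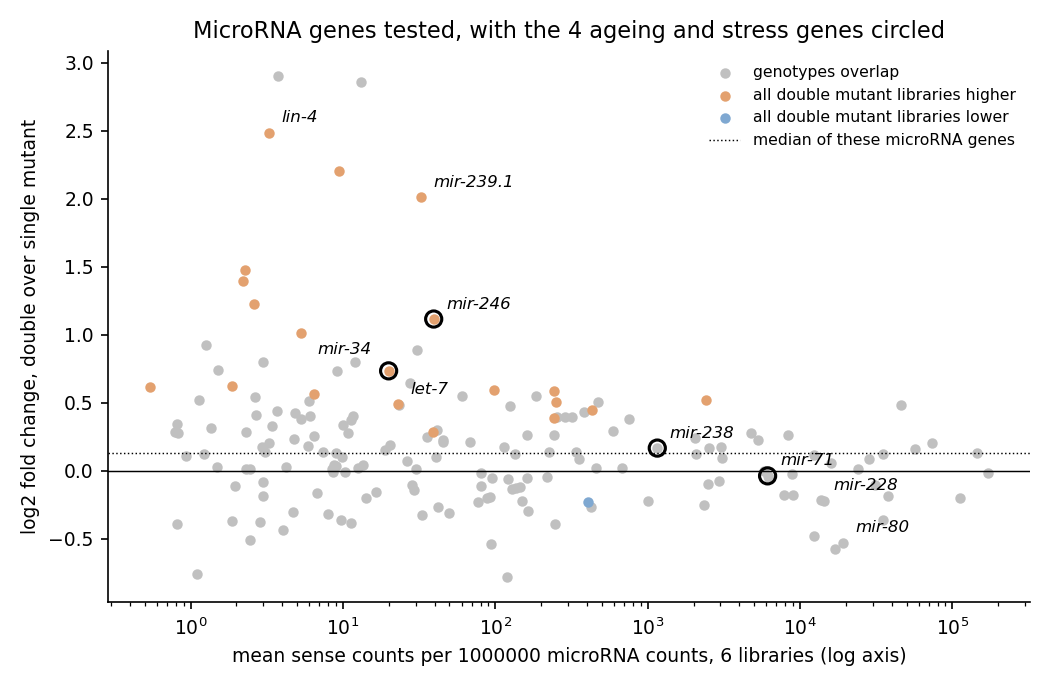
Log2 fold change from edgeR, double mutants over ced-3 embryos (vertical axis), against the mean share over 6 libraries (horizontal axis, log scale) for the 177 microRNA genes tested, with the 4 genes of interest circled. Orange points are the 20 genes whose double mutant libraries all lay higher and the blue point is the 1 gene whose double mutant libraries all lay lower. The circles of mir-246 and mir-34 are on orange points, and those of mir-238 and mir-71 lie near the dotted median of 0.13.

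The gene mir-71 (chromosome I, 9379927 to 9380020, minus strand; gene ID 260100) is the most abundant of the 4. In worms it supports long life after loss of the germline, acting in neurons, and survival of starved larvae. It lies in an intron of ppfr-1 on the same strand. Its sense counts were 88897, 164783 and 85043 in ced-3 embryos and 111980, 113298 and 70310 in double mutants. The shares were 5952, 7982 and 4672 in ced-3 embryos and 7817, 7342 and 2975 in double mutants. The highest and the lowest library are 1 of each genotype, ced-3 replicate 2 and double mutant replicate 3, and the counting intervals are narrow beside this spread (7944 to 8021 and 2953 to 2997). The means were 6045 ± 2669 in double mutants and 6202 ± 1670 in ced-3 embryos (SD, n = 3; two-sided exact permutation p = 0.9). The log2 fold change of -0.04 ± 0.37 (SE; edgeR adjusted p = 0.999) turned to 0.19 without ced-3 replicate 2, to 0.29 without double mutant replicate 3 and to 0.51 without both. Those 2 libraries are also the richest in microRNA of their genotype, at 92.4% and 89.5% of sense counts, and the part of this in the spread of mir-71 was not tested.

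Reads of the host gene were few beside those of the hairpin. The sense counts of ppfr-1 were 278, 226 and 204 in ced-3 embryos and 153, 286 and 115 in double mutants. Across from mir-71 lies an exon of F16A11.6, a non-coding RNA gene (9379946 to 9380095, plus strand). Its antisense counts were the same as the sense counts of mir-71 in all 6 libraries, and its sense count was 0 in each. Reads of mir-71 were thus counted in both tables, and the antisense counts of F16A11.6 add nothing to them. In the antisense table itself mir-71 and mir-246 had 0 counts and mir-34 and mir-238 had 1 each over the 6 libraries.

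The gene mir-238 (chromosome III, 8867328 to 8867425, minus strand; gene ID 3565806), whose loss shortens adult life, varied least of the 4. Its sense counts were 15338, 27476 and 16561 in ced-3 embryos and 21323, 14951 and 28632 in double mutants. The shares were 1027, 1331 and 909.7 in ced-3 embryos and 1489, 968.8 and 1211 in double mutants. The genotypes overlapped, and the highest library was 1.64 times the lowest, against 2.43 times for mir-34, 2.68 for mir-71 and 2.92 for mir-246. These ratios include any gap between genotypes. Within ced-3 embryos mir-246 varied less, with an SD of 18.8% of its mean against 20.0% for mir-238. Within double mutants mir-34 varied less, at 14.8% against 21.3%. The means were 1223 ± 260.1 in double mutants and 1089 ± 217 in ced-3 embryos (SD, n = 3; two-sided exact permutation p = 0.6, adjusted 0.8), with a log2 fold change of 0.17 ± 0.37 (SE; edgeR adjusted p = 0.999).

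The closest microRNA gene to mir-238 is mir-80, a far more abundant microRNA on the same strand 1960 bases away, whose loss makes fed worms resemble worms on a restricted diet. The shares of mir-80 were 12992, 35699 and 18594 in ced-3 embryos and 15035, 16636 and 14990 in double mutants. The ced-3 replicate 2 stood far above the other 5 libraries. Per base of hairpin, the count ratio of mir-238 to mir-80 was 0.0790, 0.0373 and 0.0489 in ced-3 embryos and 0.0990, 0.0582 and 0.0808 in double mutants, so the ratio of these neighbours was not constant. It overlapped between genotypes (two-sided exact permutation p = 0.2 on log2 ratios). Across from mir-80 lies an exon of K01F9.6, a non-coding RNA gene on the other strand.

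Ratios between members within a library do not depend on the scaling. Per base of hairpin, the log2 ratio of mir-34 to mir-71 was -8.29, -9.22 and -8.71 in ced-3 embryos and -8.17, -8.19 and -7.20 in double mutants. All double mutant values lay above all ced-3 values, with a difference of the means of 0.89 (two-sided exact permutation p = 0.1, or 0.4 after adjustment over the 6 pairs). Without ced-3 replicate 2 and double mutant replicate 3 the difference was 0.32. The log2 ratio of mir-238 to mir-246 was tight in ced-3 embryos, at 5.53, 5.44 and 5.33, and was 5.34, 3.90 and 4.29 in double mutants. Double mutant replicate 1 fell within the ced-3 values, and the difference of the means was -0.92 (exact permutation p = 0.2, adjusted 0.4). The other 4 pairs overlapped between genotypes, with differences from -1.21 for mir-71 to mir-246 up to 0.60 for mir-34 to mir-238 and exact permutation p-values from 0.2 to 0.8.

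**Figure D3:**
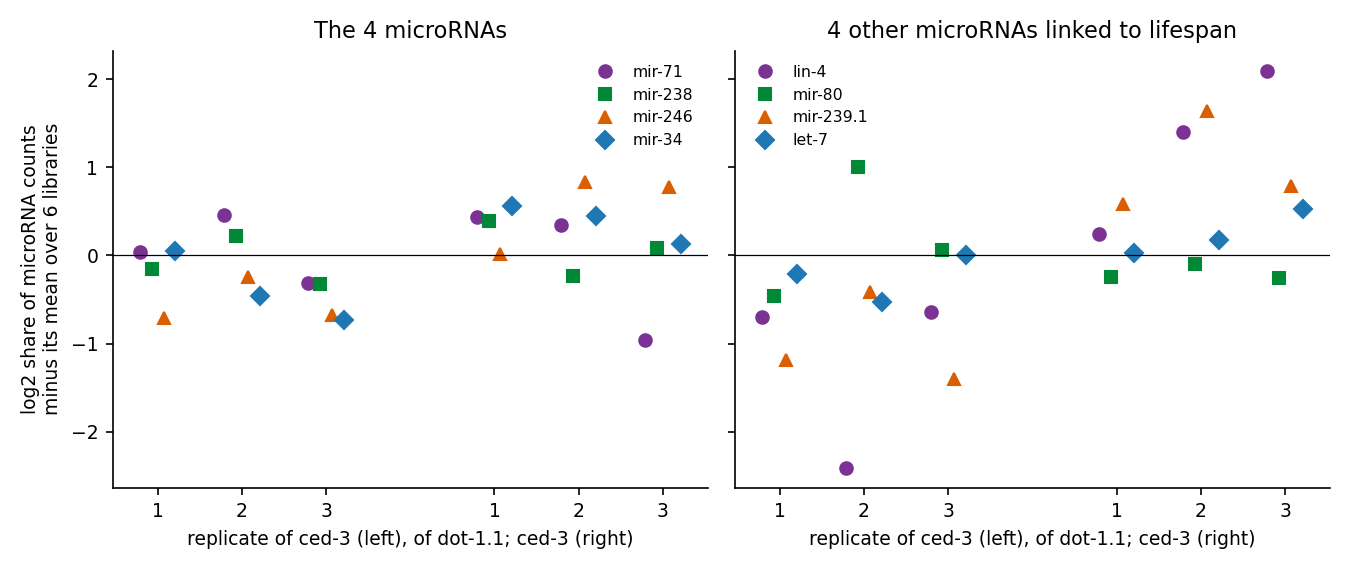
Log2 share of microRNA counts minus its own mean over the 6 libraries (vertical axis) by library (horizontal axis, 3 replicates of ced-3 embryos on the left and 3 of double mutants on the right), for the 4 genes of interest and for lin-4, mir-80, mir-239.1 and let-7. Points of mir-246 and mir-34 are higher on the right, the lowest point of mir-71 is double mutant replicate 3, and mir-239.1 and lin-4 differ between genotypes more than any of the 4.

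The 4 genes did not share 1 pattern over the libraries. Pearson correlations of their log2 shares, which rest on 6 libraries and on a common denominator and are given as a description, ran from -0.20 for mir-71 with mir-246 to 0.62 for mir-34 with mir-246. Among 116 other microRNA genes with at least 100 counts in every library, the genes most like mir-246 were mir-239.1 (r = 0.95), lsy-6, which sets the left and right identities of a pair of taste neurons (0.94), and mir-76 (0.93). Most like mir-34 were mir-245 (0.96), mir-235, which holds blast cells quiescent in starved larvae (0.95), and mir-46 (0.90). Most like mir-71 were mir-1821 (0.99), mir-793 (0.96) and mir-1018 (0.89), and all 3 of these were lowest in double mutant replicate 3. For mir-238 the closest were mir-248 (0.85), mir-796 (0.66) and mir-356.2 (0.65). Each was picked as among the highest of 116 over 6 libraries, so high values follow in part from the choice. Whether any of these genes is regulated together with a member was not tested.

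Neighbours in the order of abundance were picked as nearest in mean share over these same 6 libraries. That most lay close to the members follows largely from this choice, and the values are given as a description. The share of mir-87, directly above mir-71, was higher in 3 of 6 libraries per base of hairpin, and that of mir-81, directly below, in 3 of 6. For mir-34, the gene above it, mir-232, was higher in 3 of 6 libraries and the gene below it, mir-1829.3, in 4 of 6 once its shorter hairpin of 62 bases was counted. For mir-246, mir-67 was higher in 3 of 6. The gene mir-5594, below mir-246 in mean share, was higher per base in 6 of 6 at its annotated length of 58 bases. By share it was lower in double mutant replicates 2 and 3 (46.3 and 38.3, against 64.0 and 61.4 for mir-246) and higher in the other libraries. For mir-238, mir-42 above it was higher in 6 of 6 libraries, with a log2 ratio of 0.87 ± 0.43 (SD), and mir-254 below it was higher in 2 of 6.

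A list of 11 other microRNAs linked to lifespan or stress in worms was chosen with earlier results of these data known, and 10 of them could be tested. With edgeR 0 of the 10 passed across all genes, and 2 were higher and 0 lower before adjustment (p under 0.05). Fold changes of 6 lay above 0 and 4 below, and their median log2 fold change of 0.12 was close to the 0.13 of all microRNA genes tested. Shares of 3 of the 10 were higher in every double mutant library, against the background of 11.3%, and 0 were lower in every one. They were mir-239.1, lin-4 and let-7. Without mir-239.1 and lin-4, 1 of the remaining 8 was higher in every double mutant library, fold changes of 4 lay above 0 and of 4 below, and the median log2 value was -0.08.

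The gene mir-239.1 (chromosome X, 11792445 to 11792542), annotated as cel-mir-239a, is the relative of mir-238 whose loss, together with that of its neighbour mir-239.2, lengthens life. Its shares were 10.8, 18.5 and 9.28 in ced-3 embryos and 36.7, 76.5 and 42.3 in double mutants. Every double mutant library was above every ced-3 library, by 4.03-fold on the means, and the log2 fold change was 2.01 ± 0.67 (SE; edgeR adjusted p = 0.999). With TMM factors from the whole table the genotypes overlapped, at 4.30 to 29.4 in ced-3 embryos and 21.5 to 71.0 in double mutants. Set against mir-238 in the same library, mir-239.1 had 0.0105, 0.0139 and 0.0102 counts per count of mir-238 in ced-3 embryos and 0.0247, 0.0790 and 0.0350 in double mutants (two-sided exact permutation p = 0.1). The counts of mir-239.2, on the other strand 1045 bases from mir-239.1, were 2, 0 and 0 in ced-3 embryos and 8, 8 and 14 in double mutants, too few to enter the test.

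The heterochronic microRNAs lin-4 and let-7, which time larval development and also act on adult lifespan, were scarce. The counts of lin-4 were 19, 8 and 24 in ced-3 embryos and 35, 84 and 208 in double mutants, with a log2 fold change of 2.49 ± 0.90 (SE; edgeR adjusted p = 0.999). It was 1 of the genes called by DESeq2 with its own size factors (adjusted p = 0.0469), and was not called with microRNA size factors (DESeq2 adjusted p = 0.999). The annotated let-7 gene is 1732 bases long, far longer than a hairpin, so its counts may include reads from outside the hairpin. The shares of let-7 were 19.3, 15.5 and 22.4 in ced-3 embryos and 22.8, 25.3 and 32.2 in double mutants, so the nearest pair of libraries was almost level. Both are better known from later stages than from embryos, and whether the embryos of the genotypes differed in stage was not tested. Of the abundant microRNAs on the list, mir-80 had the lowest log2 fold change of those tested, at -0.53 ± 0.33 (SE; edgeR adjusted p = 0.999). Its share in ced-3 replicate 2 was far above that in the other libraries. For mir-228, a glial microRNA tied to dietary restriction, mean shares were 12677 ± 727 in double mutants and 14738 ± 4015 in ced-3 embryos (SD, n = 3). The log2 fold change of mir-228 was -0.22 ± 0.27 (SE; edgeR adjusted p = 0.999). For mir-83, the relative of mammalian miR-29, it was 0.30 ± 0.62. For mir-64, mir-65, mir-66 and mir-229, a cluster tied to tolerance of heat stress, the log2 fold changes ran from -0.18 to 0.23.

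The microRNA genes with the smallest p in the edgeR fit were mir-77, mir-239.1, lin-4, mir-237 and mir-85, all higher in double mutants on the means, and 0 of the 4 members is among them. The log2 fold changes were 2.86 ± 0.94 (SE) for mir-77, 2.20 ± 0.90 for mir-237, a relative of lin-4, and 2.90 ± 1.28 for mir-85. Shares of mir-77 and mir-85 overlapped between genotypes.

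**Figure D4:**
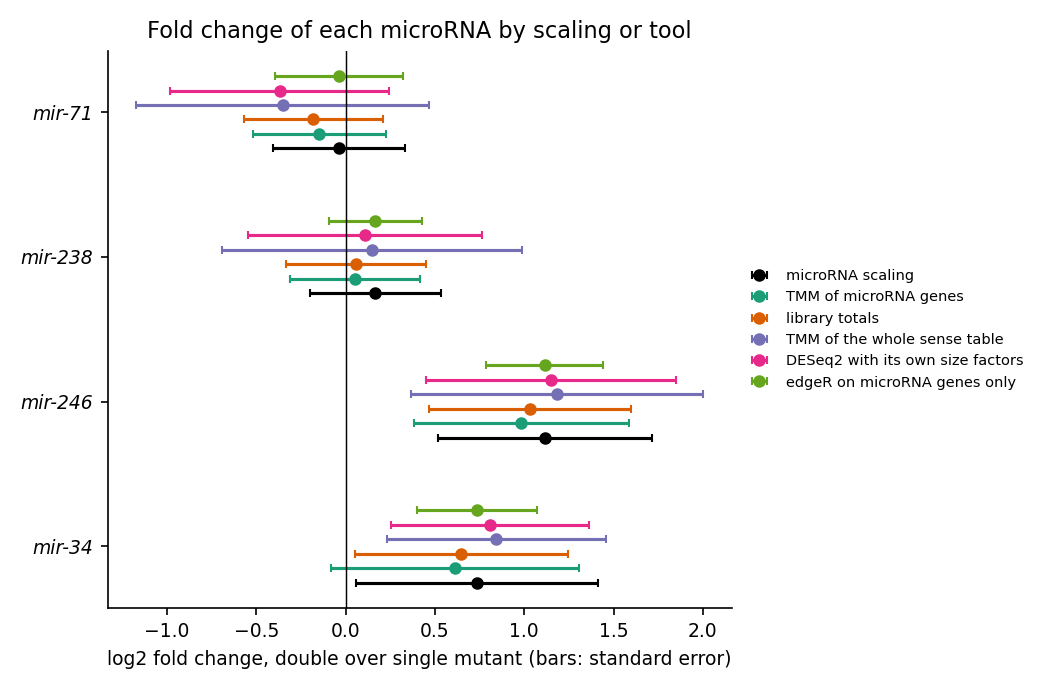
Log2 fold change, double mutants over ced-3 embryos (horizontal axis, bars for the standard error), of the 4 genes under 4 scalings in edgeR, with DESeq2, and with edgeR on microRNA genes only (colours). Points of mir-246 lie between 0.98 and 1.19 and those of mir-34 between 0.61 and 0.84, while those of mir-71 lie between -0.37 and -0.04 and those of mir-238 between 0.05 and 0.17.

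A fit of microRNA genes alone, added after the values were seen, gave smaller errors. The log2 fold changes were 1.12 ± 0.33 (SE) for mir-246, 0.73 ± 0.33 for mir-34, 0.17 ± 0.26 for mir-238 and -0.04 ± 0.36 for mir-71. With edgeR the p of mir-246 was 0.00705 and its adjusted p over the 177 genes was 0.208, and mir-34 had 0.0537 and 0.640. Before adjustment 11 genes (6.21%) of that fit were higher and 0 lower at p under 0.05, and 0 passed after it. With 1 library left out 0 members were called, and the smallest adjusted p of a member was 0.0569, for mir-246 without double mutant replicate 1. Of other microRNA genes, lin-4, mir-237, mir-239.1 and mir-77 were called higher without that library, mir-239.1 without double mutant replicate 3 (edgeR adjusted p = 0.00466) and mir-239.2 without ced-3 replicate 1. Without each of the other 3 libraries 0 microRNA genes passed.

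Insulin signalling and longevity genes, through which mir-71 and mir-34 are thought to act, gave few small RNA counts. Such counts do not measure messenger RNA. Of 24 listed genes, 18 could be tested for sense and 16 for antisense counts, and 0 passed in either with edgeR, also before adjustment. Over all 7297 antisense genes 0% passed, and 211 were higher and 173 lower before adjustment. Of the 18, sense fold changes lay above 0 for 3 and below for 15 (median -0.36, against -0.17 over all genes). Over all 7723 sense genes tested, 3086 lay above 0 and 4637 below on this scale. Antisense fold changes of the 16 lay above for 8 and below for 8 (median -0.01, against 0.02), and over all antisense genes 3779 lay above and 3518 below. The insulin receptor gene daf-2 had the most sense counts, with 299, 98 and 375 in ced-3 embryos and 290, 266 and 123 in double mutants, followed by the heat shock protein gene hsp-1 and the autophagy gene atg-9, which mir-34 is known to repress. The counts of atg-9 were 73, 9 and 21 in ced-3 embryos and 142, 60 and 13 in double mutants, with no separation of the genotypes. In the antisense table hsp-1, daf-2 and skn-1 had the most counts, and the largest difference of the 3 was a log2 fold change of 0.48 ± 0.46 (SE) for hsp-1 (edgeR adjusted p = 0.892).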

How the data were processed

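Small RNA with inserts of 18 to 40 bases was read as single reads of 50 bases, per the labels' protocols. The authors deposited 2 tables of raw counts, whole-number read counts per gene with 1 column per library, for sense and antisense reads. The submitters' processing notes name WBcel235. The aligner, the counting and the treatment of multiply mapping reads are not stated in the sources used, and counts per gene do not separate the arms of a hairpin. Each column was assigned by its genotype and number. Sample titles also hold short names whose numbers differ from the columns for replicates 2 and 3, so only the genotype of those is certain. The numbers in the short names are the same in both genotypes. Unused value columns numbered 0.

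Sense totals ran from 19206363 to 26409182 and microRNA counts from 14324396 to 23637864, or 72.9% to 92.4% of sense counts. MicroRNA genes were taken from the RefSeq gene table, and positions and strands from it and the Ensembl annotation of the same build. Libraries of a genotype differed far beyond counting noise.

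The sense table was fitted with edgeR 4.0.16 in R 4.3.3 (filterByExpr, library size set to the microRNA count, robust quasi-likelihood F test, Benjamini-Hochberg adjustment), and the antisense table with TMM. The standard error is the log2 fold change divided by the square root of F. On simulated counts this sense fit recovered directions and sizes but had little power to call genes, and a fit of microRNA genes only had more. DESeq2 1.42.0, other scalings, denominators, filters and left-out libraries were tried as alternatives. Shares and ratios were compared with two-sided exact permutation tests. The p-values measure the spread between these libraries, which may be technical. Those of edgeR, and its standard errors, also draw on the spread of the other genes in the fit. The standard error of mir-246 was 0.60 in the whole-table fit and 0.33 with microRNA genes only, and that of mir-34 was 0.68 and 0.33. The members and lists were chosen with earlier results of these data known.

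Named genes were the members, the listed lifespan microRNAs, neighbours in the order of mean share, the 3 microRNAs most like each member (Pearson correlation of log2 shares, at least 100 counts in every library), the 5 microRNAs with the smallest p and the 3 insulin or longevity genes with the most counts in each table. Seed families were not derived from sequence here. The genes ppfr-1, F16A11.6, K01F9.6, fic-1 and gbb-1 were named for their position.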

Additional observations from a re-analysis of the deposited data

How the results depend on the processing

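Across 170 alternative values of the 14 shares, fold changes and ratios of the members, 11 had the opposite direction, all for mir-71 or its ratio to mir-238. These values are not independent, so their number does not measure stability. On the microRNA scale the share and the fold change give nearly the same value. Left-out libraries were also counted again in the fit of microRNA genes only. Since the exact tests of shares and ratios could not reach 0.05 at these group sizes and the whole-table fit had little power, a p that stayed above the threshold says nothing about stability. For mir-34 and mir-246 all 64 values of the share and the fold change were above 0, with log2 fold changes from 0.58 to 0.98 and from 0.97 to 1.33, and edgeR or DESeq2 adjusted p from 0.345 to 1 and from 0.0569 to 1. All double mutant shares of these 2 genes lay above all ced-3 shares. Values with libraries left out or with the replicate block therefore could not fall below 0, and their sign says nothing about stability. The same holds for the ratio of mir-34 to mir-71 with libraries left out. For mir-71 the log2 share ratio of -0.04 became 0.049 with the 5 most abundant microRNAs left out of the denominator and 0.51 without the 2 microRNA-rich libraries (0.51 also with edgeR). Leaving out 1 library gave -0.27 to 0.29 for the share and the fold change, and in the fit of microRNA genes only it was 0.19 without ced-3 replicate 2 and 0.29 without double mutant replicate 3. The difference in the log2 ratio of mir-71 to mir-238 ran from -0.65 to 0.16 with 1 library left out and was 0.21 without both microRNA-rich libraries. The cause was not tested. No sense gene was called with edgeR in all 6 libraries, but 2 were higher with no filter on low counts, 9 higher and 1 lower with DESeq2 and its own size factors (0 and 0 with microRNA size factors), and 8 higher and 5 lower without the 2 microRNA-rich libraries. With 1 library left out, 0 to 2 were higher and 0 to 9 lower, the 2 without replicate 3 and the 9 without replicate 1 of double mutants. Deviations of same-numbered libraries from their group means correlated at 0.63, 0.07 and -0.07 for replicates 1, 2 and 3 over all genes tested, and at 0.41, -0.16 and 0.40 over microRNA genes. Of differently numbered pairs, ced-3 replicate 2 with double mutant replicate 3, the 2 microRNA-rich libraries, correlated at 0.52 over all genes and 0.14 over microRNA genes. The other differently numbered pairs ran from -0.58 to 0.06 over all genes. Not every same-numbered pair was above 0.1 in either set, so the number was not taken to pair libraries. Replicate 1 deviated together in both sets, and the numbers of replicates 2 and 3 are uncertain. Deviations from a mean of 3 libraries also depend on each other, so this check cannot exclude that libraries were paired. With the replicate number as a block the log2 fold changes were 0.76 for mir-34, -0.13 for mir-71, 0.17 for mir-238 and 1.09 for mir-246, and 0 genes were called. The median over all genes tested was -0.17 on the microRNA scale, 0.01 with TMM, -0.27 with library totals and -0.30 with TMM of microRNA genes. Depth limits mir-34 most, where the nearest libraries of the genotypes were within counting error.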
